A study of Danio rerio with 16 samples.

Results

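The genes that make retinoic acid, break it down and receive its signal were followed through early development of the zebrafish (Danio rerio). They were taken from the count table by name: cyp26a1, cyp26b1, cyp26c1, aldh1a2, dhrs3a, rdh10a, raraa, rarab and rarga, 9 names in all. The table of gene names used here writes some zebrafish genes in the capitals of the human ortholog and without the paralog letter. The symbols DHRS3, RDH10 and RARG each stood for 2 genes there, and both genes were kept because the paralogs could not be told apart. This gave 12 genes of the 32520 in the table. The pairs are called the first and the second DHRS3 (ENSDARG00000044803 and ENSDARG00000044982), RDH10 (ENSDARG00000012369 and ENSDARG00000058730) and RARG (ENSDARG00000034117 and ENSDARG00000054003).

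Retinoic acid is a vitamin A derivative that patterns the trunk and hindbrain of vertebrate embryos. Retinol dehydrogenases such as RDH10 oxidise retinol to retinaldehyde, DHRS3 turns retinaldehyde back to retinol, and ALDH1A2 makes retinoic acid from retinaldehyde, mainly in the mesoderm that forms somites. CYP26 enzymes of the cytochrome P450 family degrade retinoic acid, so that the future brain and the tail end of the embryo see little of it. The ligand binds retinoic acid receptors, which sit on DNA as dimers with RXR receptors and control Hox genes and other targets. Transcription of cyp26a1 and dhrs3a is itself raised by retinoic acid.

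The samples were whole wild-type embryos, each given an antisense oligonucleotide with modified sugars (a locked nucleic acid, LNA) by injection at 0 hpf, where hpf stands for hours post fertilization. It was either Bik-1 LNA, directed at the endogenous retrovirus BHIKHARI (knockdown), or a scrambled sequence (control). Both groups thus carried an injected oligonucleotide, and uninjected embryos are not analysed here. Polyadenylated RNA was sequenced at 8, 11, 14 and 18 hpf with 2 replicates per group, which makes 16 libraries of 4399855 to 7694887 counts. The labels do not say whether replicates came from separate clutches, so the p-values cover no more than the spread between the sequenced samples, and that spread may be technical.

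RNA of the long terminal repeat of BHIKHARI, counted as the family BHIKHARI_LTR, was lower in both knockdown libraries than in both controls at each time, with 677 to 751 against 2807 to 2822 CPM at 8 hpf. So was the internal part, BHIKHARI_I-int, with 532 to 558 against 1995 to 2070 CPM at 8 hpf and 36.2 to 92.9 against 108 to 161 at 11 hpf. In edgeR's quasi-likelihood test BHIKHARI_LTR had an adjusted p under 0.05 at each time. The values were 1.49e-06 (8 hpf), 7.93e-06 (11 hpf), 2.07e-06 (14 hpf) and 0.000201 (18 hpf). In the same test BHIKHARI_I-int reached an adjusted p under 0.05 on average over the 4 times (0.0082), but at no single time (0.0775 at 8 hpf). Levels are given as CPM, counts scaled to a common library size with TMM factors, and are compared between samples and not between genes. Several markers followed the labelled ages: the organizer gene GSC averaged 64.5 CPM in controls at 8 hpf and 0.209 at 18 hpf, the hindbrain gene EGR2 0.0819 and 23.2, and the embryonic globin hbbe3 had 0 counts at 8 hpf and 75.2 CPM at 18 hpf. Not all did: the gastrula gene mixl1 averaged 0.74 and 0.499 CPM at these ages, and the yolk syncytial layer gene TTR 0 and 0.22. The other yolk syncytial layer genes were abundant and higher at 18 hpf, apoa1b at 482.9 and 865.7 CPM and apobb.1 at 214.2 and 993.2. Of the egg coat genes that an embryo could inherit as maternal RNA, zp3b averaged 43 and 5.29 CPM at the same ages. In whole embryos, fewer cells of a type and less RNA per cell cannot be told apart. Along the first principal component of log2 CPM, which held 65.9% of the variance and followed age, replicate 2 at 11 hpf lay on the earlier side of replicate 1 in both groups (control -26.6 against -4, knockdown -44.5 against -8).

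Between 8 and 11 hpf, from gastrulation to the first somites, the pathway changed over in control embryos. Messenger RNA for the synthesis enzymes, for the first DHRS3 and for CYP26A1 fell, while CYP26B1 and CYP26C1 rose from near 0, and the receptors split, with raraa and the first RARG rising and rarab falling. Of the 12 genes, 11 passed the filter on low counts, and 10 of these 11 were called at this step (4 higher, 6 lower). A gene was called at an adjusted p under 0.05 in edgeR's quasi-likelihood test, which called 30.4% of all features at this step, 18.4% higher and 12% lower. The median log2 fold change of the 11 genes was -0.79 against 0.05 for all features. After 11 hpf fewer of them were called: 1 of 11, higher, from 11 to 14 hpf, where 2.64% of all features were called and 1.95% were called higher. The values of 10 of the 11 lay below 0 at that step, with a median log2 fold change of -0.42 against 0.009 for all features. An unadjusted p under 0.05 was found for 5 of the 11, beside 14.7% of all features. From 14 to 18 hpf 2 of 11 were called, both lower, against 11.6% of all features and 3.85% called lower.

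**Figure D1:**
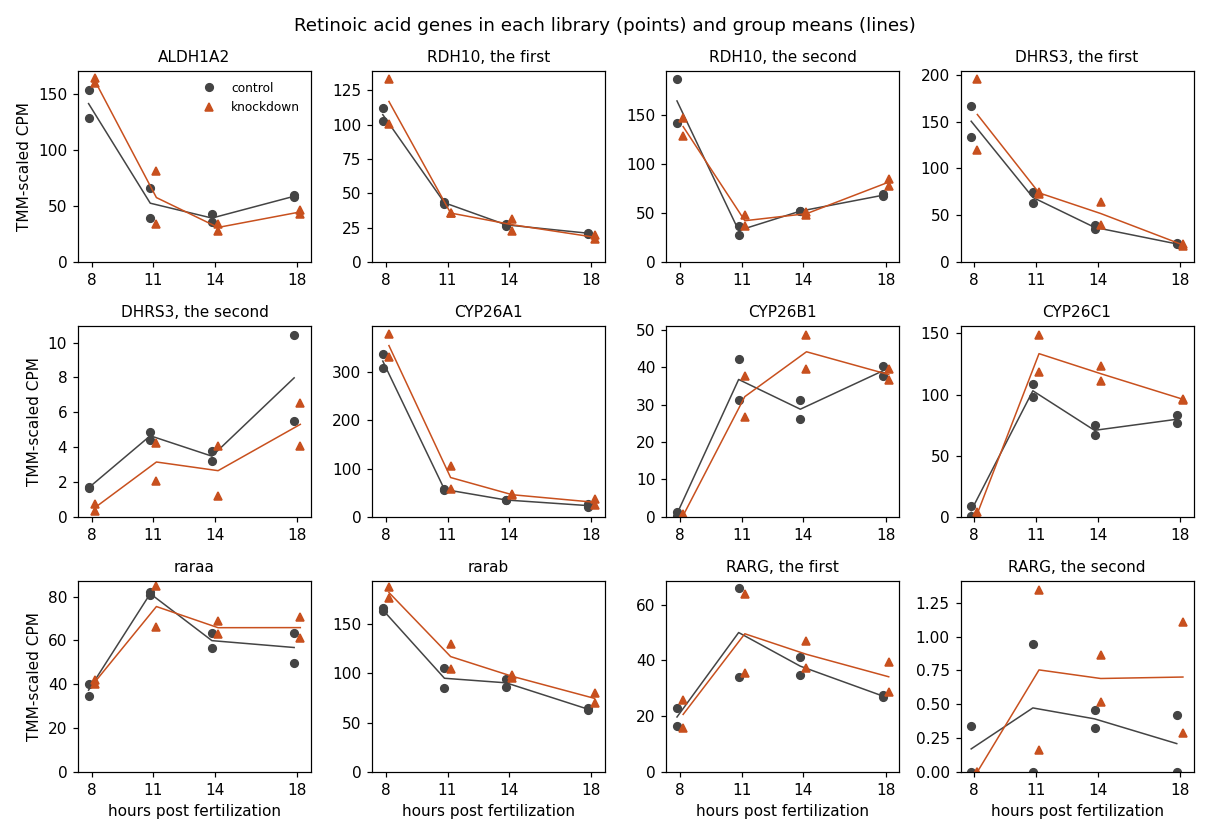
Level of each of the 12 genes in TMM-scaled CPM (vertical axis, from 0) against hours post fertilization, with circles for control and triangles for knockdown libraries and lines through group means. CYP26A1, ALDH1A2, the first DHRS3 and both RDH10 genes were highest at 8 hpf, whereas CYP26B1 and CYP26C1 were near 0 there.

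ALDH1A2, the enzyme of the last step of synthesis, stood at 128.9 and 154 CPM in the 2 controls (8 hpf), then 39 and 65.9 (11 hpf), 35.8 and 42.6 (14 hpf) and 59.6 and 57.7 (18 hpf). Both 8 hpf libraries lay above all later ones, and the spread at 11 hpf was wide, with the higher value in replicate 2. The fall from 8 to 11 hpf was 1.43 on the log2 scale (log2 fold change -1.43, SE 0.32, adjusted p = 0.0063). ALDH1A2 missed the threshold with control replicate 1 of 11 hpf left out (-1.09, adjusted p = 0.064) and with control replicate 2 of 8 hpf left out (-1.31, adjusted p = 0.051). The later differences of ALDH1A2 were -0.42 (SE 0.33, adjusted p = 0.63) from 11 to 14 hpf and 0.58 (SE 0.33, adjusted p = 0.30) from 14 to 18 hpf.

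The pair of RDH10 genes, which act one step earlier, shared the first fall and then parted. The first RDH10 (ENSDARG00000012369) stood at 102.5 and 111.9 CPM (8 hpf), then 42.3 and 43.8 (11 hpf), 26.2 and 27.7 (14 hpf) and 20.7 and 21.1 (18 hpf). Its controls declined without overlap at every step, and the step from 8 to 11 hpf was called (-1.32, SE 0.17, adjusted p = 3.3e-05). A fall without overlap was common: 29.8% of all features had it from 8 to 11 hpf, 20.6% from 11 to 14 hpf and 30.3% from 14 to 18 hpf. The second RDH10 (ENSDARG00000058730) stood at 187.8 and 142 CPM (8 hpf), then 27.7 and 36.6 (11 hpf), 52.3 and 51.7 (14 hpf) and 67.3 and 69.2 (18 hpf). It fell by 2.36 from 8 to 11 hpf (SE 0.17, adjusted p = 1.3e-07) and was the 1 gene of the 11 that rose from 11 to 14 hpf (0.69, SE 0.17, adjusted p = 0.041). The first RDH10 had -0.67 at that step (SE 0.18, adjusted p = 0.051), so the pair had opposite signs. The call of this rise was lost when any 1 control library of 11, 14 or 18 hpf or any 1 knockdown library of 14 or 18 hpf was left out, and when the 2 groups were fitted alone.

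DHRS3, which removes retinaldehyde and so acts against synthesis, also had members of unlike course. The first DHRS3 (ENSDARG00000044803) stood at 166.7 and 134 CPM (8 hpf), then 74.9 and 62.9 (11 hpf), 39.2 and 34.7 (14 hpf) and 19.8 and 18.7 (18 hpf). It fell from 8 to 11 hpf (-1.13, SE 0.22, adjusted p = 0.0018) and from 14 to 18 hpf (-0.94, SE 0.25, adjusted p = 0.023), and the step between them was of like size (-0.90, SE 0.23, adjusted p = 0.056). Control libraries did not overlap at any of the 3 steps, where 29.8%, 20.6% and 30.3% of all features fell without overlap. The second DHRS3 (ENSDARG00000044982) had far fewer counts, 10 to 75 in a control library, at 1.64 and 1.70 CPM (8 hpf), then 4.90 and 4.42 (11 hpf), 3.77 and 3.20 (14 hpf) and 5.50 and 10.5 (18 hpf). Its difference from 8 to 11 hpf was 1.47 (SE 0.57, adjusted p = 0.062), the single one of the 11 genes not called at that step.

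Of the degrading enzymes, CYP26A1 moved opposite to the other CYP26 genes from 8 to 11 hpf, whereas from 11 to 14 hpf all 3 had values below 0 (-0.70, -0.35 for CYP26B1 and -0.54 for CYP26C1), none of them called. CYP26A1 stood at 307.7 and 336.6 CPM (8 hpf), then 55.5 and 58 (11 hpf), 34 and 35.9 (14 hpf) and 25.9 and 20.6 (18 hpf). The 8 hpf mean was 13.8 times the 18 hpf mean. Control libraries did not overlap at any step, where 29.8%, 20.6% and 30.3% of all features fell without overlap. The fall from 8 to 11 hpf was 2.50 on the log2 scale (log2 fold change -2.50, SE 0.24, adjusted p = 7.1e-06). The next steps, at -0.70 (SE 0.24, adjusted p = 0.17) and -0.60 (SE 0.26, adjusted p = 0.16), did not pass.

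CYP26B1, which in vertebrates marks hindbrain segments among other tissues, had 8 and 2 counts in the 8 hpf controls (1.31 and 0.34 CPM). It then stood at 42.1 and 31.4 CPM (11 hpf), 26.2 and 31.3 (14 hpf) and 40.2 and 37.8 (18 hpf). The rise from 8 to 11 hpf was 5.43 (SE 0.43, adjusted p = 3.9e-07), and it was called in each alternative fit, with values from 4.78 without control 8 hpf replicate 2 to 6.65 without control 8 hpf replicate 1. CYP26C1, also a hindbrain gene, had 56 and 6 counts at 8 hpf (9.17 and 1.02 CPM), then 108.2 and 97.9 CPM (11 hpf), 66.6 and 74.9 (14 hpf) and 83.1 and 76.4 (18 hpf). It rose by 4.32 (SE 0.55, adjusted p = 3.4e-04), with values from 3.47 without control 8 hpf replicate 2 to 6.61 without control 8 hpf replicate 1, and it was called in each of these fits. The hindbrain marker EGR2 moved in the same direction over this step, from 0.0819 to 44.2 CPM, and the part of hindbrain tissue in the result was not tested.

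The highest control mean of each tested receptor was 2.18 to 2.59 times its lowest, against 3.61 to 47.3 times for the tested enzymes. The receptor gene rarab stood at 166 and 163.2 CPM (8 hpf), then 85 and 105.2 (11 hpf), 94.7 and 86.3 (14 hpf) and 64.4 and 62.8 (18 hpf). It fell from 8 to 11 hpf (-0.79, SE 0.13, adjusted p = 3.7e-04) and from 14 to 18 hpf (-0.51, SE 0.14, adjusted p = 0.022). The call of rarab from 14 to 18 hpf, like that of the first DHRS3, was lost without any 1 of the 4 control libraries of those times.

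Its paralog raraa rose from 40 and 34.7 CPM at 8 hpf to 81.9 and 80.7 at 11 hpf (1.12, SE 0.16, adjusted p = 9.1e-05), a 2.18-fold change. It then stood at 63.3 and 56.5 CPM at 14 hpf and 49.9 and 63.6 at 18 hpf, and neither later step passed (adjusted p = 0.17 and 0.82). The first RARG (ENSDARG00000034117) stood at 22.9 and 16.5 CPM (8 hpf), then 34 and 66.1 (11 hpf), 41.2 and 34.7 (14 hpf) and 27 and 27.5 (18 hpf). Its rise from 8 to 11 hpf (1.34, SE 0.36, adjusted p = 0.013) rested on the higher replicate 2 at 11 hpf, without which the value was 0.79 (adjusted p = 0.12). It was also lost without control 8 hpf replicate 2 (1.11, adjusted p = 0.13). The second RARG (ENSDARG00000054003) had 0 to 6 counts in a control and 0 to 11 in a knockdown library and was not tested.

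**Figure D2:**
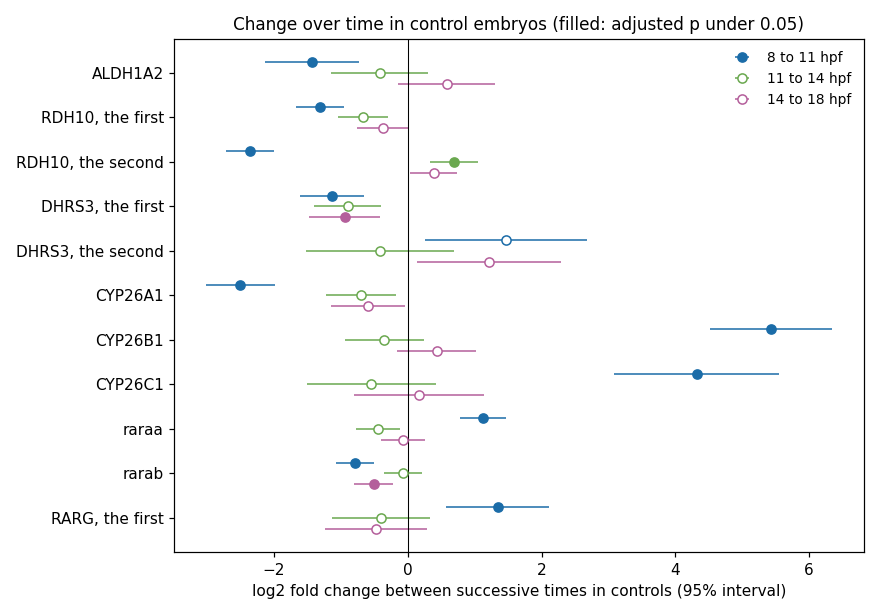
Log2 fold change between successive times in control embryos (horizontal axis, with 95% intervals) for the 11 genes tested, filled where the adjusted p was under 0.05. From 8 to 11 hpf 10 of 11 are filled, from -2.50 for CYP26A1 to 5.43 for CYP26B1.

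Other genes of the pathway were also called mostly at the first step. Among 18 tested genes of retinoid synthesis, transport and storage (of 24 listed), 12 were called from 8 to 11 hpf, 8 higher and 4 lower, beside 30.4% of all features called, 18.4% higher and 12% lower. The median of these 18 was 1.65 against 0.05 for all features, or 2.07 with a gene at 0 counts set to its bound and 2 genes of at most 3 counts left out. The plasma retinol carrier RBP4 had 0 counts in the 8 hpf controls and 35 at 11 hpf, at least 11.2-fold higher. RBP2 (ENSDARG00000070038), a cellular retinol carrier, went from 3 to 56 counts (adjusted p = 2.2e-04), and its relative rbp5 from 9 to 153 (adjusted p = 0.008). CRABP2 (ENSDARG00000030449), which carries retinoic acid to the nucleus, fell by 2.70 (SE 0.39, adjusted p = 8.3e-04), rbp7a by 1.92 (SE 0.27, adjusted p = 6.7e-05) and DHRS9 by 1.27 (SE 0.27, adjusted p = 0.0023).

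From 11 to 14 hpf 1 of these 18 was called, where 2.64% of all features were, rbp7a (-1.12, SE 0.29, adjusted p = 0.049). From 14 to 18 hpf 2 were called, a share near the 11.6% of all features, rbp7a (-2.55, SE 0.40, adjusted p = 5.4e-04) and CRABP1 (ENSDARG00000035904), a cytoplasmic retinoic acid carrier, at 2.27 (SE 0.57, adjusted p = 0.015).

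Of 18 tested receptor partners and cofactors (of 19 listed), 6 rose and 2 fell from 8 to 11 hpf, with a median of 0.59 against 0.05 for all features. Of all features 18.4% were called higher and 12% lower, so that the share that fell was near that of all features. The nuclear receptors NR2F2 (5.37, SE 0.60, adjusted p = 1.7e-04) and nr2f5 (3.40, SE 0.56, adjusted p = 0.0021) rose, as did the RXR gene rxrga (1.78, SE 0.51, adjusted p = 0.015). The corepressors NRIP1 (-2.46, SE 0.42, adjusted p = 4.6e-04) and NCOR1 (-0.32, SE 0.12, adjusted p = 0.0496) fell. From 11 to 14 hpf 1 gene rose, NR2F1 (ENSDARG00000017168; 3.93, SE 0.79, adjusted p = 0.016), where 1.95% of all features were called higher. From 14 to 18 hpf 3 of the 18 rose, where 7.76% of all features were called higher. They were the same NR2F1 gene (3.89, SE 0.44, adjusted p = 5.4e-05), its paralog NR2F1 (ENSDARG00000052695; 1.71, SE 0.41, adjusted p = 0.022) and nrip1b (0.79, SE 0.19, adjusted p = 0.012).

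Of 30 tested genes known to respond to retinoic acid (of 31 listed), 19 rose and 3 fell from 8 to 11 hpf, with a median of 1.63 against 0.05 for all features. The share called higher stood beside 18.4% of all features, and the share called lower was near the 12% of all features. The Hox gene hoxa2b went from 0 to 112 counts, at least 35.9-fold higher. The genes that fell were pdx1 (-3.12, SE 0.74, adjusted p = 0.0045), hoxb1b (-0.66, SE 0.15, adjusted p = 0.0037) and pbx4, a partner of Hox proteins (-0.37, SE 0.09, adjusted p = 0.0072).

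From 11 to 14 hpf meis1a, another partner of Hox proteins, rose from 268 to 587 counts (adjusted p = 0.029) and the caudal genes cdx1a (-1.14, SE 0.22, adjusted p = 0.015) and cdx4 (-0.53, SE 0.11, adjusted p = 0.015) fell. Of the 30 genes 1 was called higher and 2 lower at that step, beside 1.95% and 0.681% of all features. From 14 to 18 hpf 5 of the 30 were called lower and none higher, beside 3.85% and 7.76% of all features. Among the 5 were cdx1a (-3.48, SE 0.28, adjusted p = 2.8e-06) and cdx4 (-1.30, SE 0.11, adjusted p = 1.3e-06). Of the list genes that the naming rule gave, leaving out 1 library ended the call of 5 of 17 from 8 to 11 hpf (RBP4, rbp5, rxrga, NCOR1 and pbx4), of all 5 from 11 to 14 hpf, and of 3 of 8 from 14 to 18 hpf (CRABP1, NR2F1 ENSDARG00000052695 and nrip1b).

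The study's own question was what lowering BHIKHARI RNA does to the embryo. In the main fit of edgeR's quasi-likelihood test, none of the 11 genes was called between knockdown and control at any of the 4 times. None was called by DESeq2, which gave the second DHRS3 no adjusted p at 11 hpf. Some other settings of the edgeR test called CYP26B1 or CYP26C1 at 14 hpf, as given below. Genes with an unadjusted p under 0.05 numbered 1 at 8 hpf, 3 at 11 hpf, 1 at 14 hpf and 0 at 18 hpf, against 9.19%, 4.64%, 5.58% and 4.5% of all features. At an adjusted p under 0.05 the shares of all features were 0.344%, 0.00563%, 0.00563% and 0.0113%, so that a call was rare for any gene. The 95% intervals reached at 8 hpf from -3.28 for the second DHRS3 (ENSDARG00000044982) to 0.88 for ALDH1A2, and at 14 hpf from -1.63 for the second DHRS3 to 1.69 for CYP26C1.

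Knockdown libraries lay above both controls for 3 of the 11 genes and below both for 1 at 8 hpf, where 16.7% and 17.8% of all features did. The counts were 2 and 2 at 11 hpf (13.3% and 13.7% of all features), 5 and 2 at 14 hpf (21.2% and 21.8%), and 4 and 2 at 18 hpf (20.2% and 19.9%). Averaged over the 4 times none of the 11 was called by the main edgeR fit or by DESeq2, where edgeR called 1.63% of all features. An unadjusted p under 0.05 was found for 3 of them, CYP26A1, rarab and the second DHRS3, and for 15.4% of all features. The median of the average log2 fold change was 0.09 over the 11 genes and 0.01 over all features. The test of whether the knockdown effect changed over the times called none of the 11 by the main edgeR fit or DESeq2, with 0 at an unadjusted p under 0.05 against 2.64% of all features, and edgeR called 0% of all features.

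**Figure D3:**
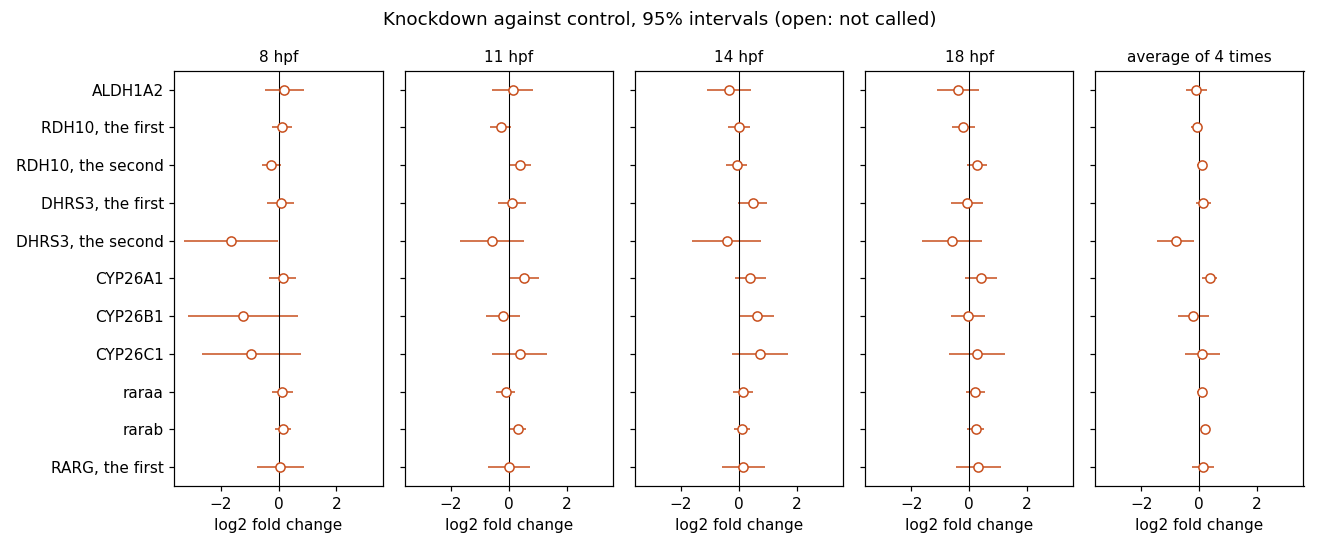
Log2 fold change of knockdown against control (horizontal axis, with 95% intervals) for the 11 genes tested at each time and on average over the 4 times, drawn open because none was called. On average CYP26A1 (0.36) and rarab (0.20) lie above 0 and the second DHRS3 (-0.82) below.

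CYP26A1 stood at 330.9 and 377.3 CPM in the knockdown (8 hpf), then 57.4 and 105.3 (11 hpf), 45.2 and 46.4 (14 hpf) and 36.8 and 23.7 (18 hpf). The libraries lay above both controls at 14 hpf, and at the other times the groups overlapped. Its average log2 fold change was 0.36 (SE 0.12, 95% interval 0.10 to 0.62, unadjusted p = 0.0095, adjusted p = 0.16), and it passed with no filter beyond 1 count (adjusted p = 0.0012). From the earliest to the latest time the log2 fold change was 0.14, 0.53, 0.39 and 0.40 (SE 0.22, 0.23, 0.25 and 0.26), with adjusted p from 0.89 to 1.

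The 11 hpf value of CYP26A1 turned on knockdown replicate 2, and it was 0.89 and called without replicate 1 (adjusted p = 0.036). In knockdown replicate 2 the first principal component also lay furthest to the earlier side of its time (-44.5), and knockdown libraries lay to the earlier side of the same-numbered control at all 4 times. CYP26A1 fell with age, and the part of age in the difference was not tested.

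CYP26C1 stood at 4.34 and 1.14 CPM in the knockdown (8 hpf), then 118 and 148.8 (11 hpf), 111.1 and 123 (14 hpf) and 95.5 and 96.7 (18 hpf). From 11 hpf on, both knockdown libraries lay above both controls at each time, by 0.37 (SE 0.42, adjusted p = 1), 0.73 (SE 0.43, adjusted p = 0.89) and 0.27 (SE 0.43, adjusted p = 0.998). At 8 hpf its value was -0.94 (SE 0.77, adjusted p = 0.81), from 31 counts in the knockdown and 62 in controls. Its average over the 4 times was 0.11 (SE 0.27, adjusted p = 0.90). Over 11, 14 and 18 hpf alone its average was 0.46 (SE 0.25, adjusted p = 0.48). At 14 hpf CYP26C1 passed when that time was fitted alone (adjusted p = 0.02) or with no filter beyond 1 count (adjusted p = 0.0094). CYP26B1 stood at 0.723 and 0 CPM (8 hpf), then 37.6 and 26.7 (11 hpf), 39.6 and 48.7 (14 hpf) and 36.6 and 39.5 (18 hpf). Its groups did not overlap at 14 hpf (0.62, SE 0.28, unadjusted p = 0.041, adjusted p = 0.88) and overlapped at the other times. The average of CYP26B1 was -0.21 (SE 0.25, adjusted p = 0.735). This took in the 8 hpf value of -1.23 (SE 0.89), from 4 counts in the knockdown and 10 in controls. Over 11, 14 and 18 hpf alone the average of CYP26B1 was 0.13 (SE 0.16, adjusted p = 0.787). The hindbrain marker EGR2 averaged 68.1 CPM in the knockdown at 14 hpf against 57.9 in controls, and its part in the CYP26 values was not tested.

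ALDH1A2 stood at 164 and 160.1 CPM in the knockdown (8 hpf), then 34.1 and 80.9 (11 hpf), 28 and 33.6 (14 hpf) and 46.5 and 42.8 (18 hpf). Both libraries lay above both controls at the first time (0.20, SE 0.31, adjusted p = 0.93), and below both at 14 hpf (-0.34, SE 0.34, adjusted p = 0.93) and at the last time (-0.39, SE 0.33, adjusted p = 0.99). The 95% interval of its average, -0.10, ran from -0.46 to 0.26. As in controls, replicate 2 at 11 hpf had more ALDH1A2 than replicate 1.

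The first RDH10 (ENSDARG00000012369) had log2 fold changes from -0.28 at 11 hpf to 0.12 at 8 hpf and an average of -0.09 (95% interval -0.28 to 0.10). The second RDH10 (ENSDARG00000058730) stood at 36.7 and 47.7 CPM in the knockdown at 11 hpf, above both controls (0.39, SE 0.17, unadjusted p = 0.036, adjusted p = 1), and averaged 0.08 over the times (95% interval -0.09 to 0.26).

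The first DHRS3 (ENSDARG00000044803) stood at 64 and 39.5 CPM in the knockdown at 14 hpf, above both controls (0.48, SE 0.24, adjusted p = 0.88), and overlapped with the controls at the other times. The second DHRS3 (ENSDARG00000044982) had 4 and 2 counts in the 8 hpf knockdown against 10 and 10 in the controls (0.723 and 0.325 CPM), at -1.66 (SE 0.77, unadjusted p = 0.046, adjusted p = 0.53). Its average was -0.82 (SE 0.30, unadjusted p = 0.015, adjusted p = 0.20), and its knockdown mean lay below the control mean at each of the 4 times. The part of age in this average was not tested.

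Among the receptors, rarab stood at 187.9 and 176.5 CPM in the knockdown (8 hpf), then 104.3 and 130 (11 hpf), 95.4 and 98.7 (14 hpf) and 69.5 and 79.9 (18 hpf). Its mean lay above the control mean at all 4 times, with an average of 0.20 (SE 0.07, unadjusted p = 0.01, adjusted p = 0.17). In controls rarab was lower at 18 hpf than at 8 hpf, and the part of age in the knockdown difference was not tested. Without knockdown 11 hpf replicate 1 the average of rarab was 0.23 and passed (adjusted p = 0.046), as did that of CYP26A1 (0.45, adjusted p = 0.0037). The average was 0.09 for raraa (95% interval -0.08 to 0.26) and 0.13 for the first RARG (ENSDARG00000034117; 95% interval -0.25 to 0.51).

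The first step of development had the same directions in the knockdown series. From 8 to 11 hpf CYP26A1 differed by -2.12 there against -2.50 in controls, CYP26B1 by 6.46 against 5.43, CYP26C1 by 5.63 against 4.32 and ALDH1A2 by -1.49 against -1.43. For raraa the values were 0.88 against 1.12 and for rarab -0.64 against -0.79. The knockdown value of CYP26B1 was measured from 4 counts at 8 hpf.

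The main edgeR fit called none of the other pathway genes between knockdown and control at any time, on average or for a changing effect. DESeq2 called 2, pbx4 at 8 hpf (-0.43, adjusted p = 0.01) and CRABP2 (ENSDARG00000073978) on average (-0.43, adjusted p = 0.023). Calls of these genes under other settings of the edgeR test are not reported here. Of 18 tested genes of synthesis, transport and storage, 3, 1, 1 and 2 had an unadjusted p under 0.05 at 8, 11, 14 and 18 hpf, beside 9.19%, 4.64%, 5.58% and 4.5% of all features. CRABP2 (ENSDARG00000073978) had the lowest p of these at 8 hpf (-0.82, SE 0.30, adjusted p = 0.40) and on average (-0.42, SE 0.12, adjusted p = 0.10). DHRS9 had it at 11 hpf (-0.84, SE 0.29, adjusted p = 0.94), and LRAT, which stores retinol as esters, at 14 hpf, with 3 counts against 25 (-2.68, SE 0.96, adjusted p = 0.82). STRA6, the cell surface receptor for retinol carried by RBP4, had it at 18 hpf, at 11.9 and 9.08 CPM against 17.4 and 17.7 in controls (-0.73, SE 0.27, adjusted p = 0.99).

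Of the 18 receptor partners and cofactors, 2 had an unadjusted p under 0.05 at 8 hpf, a share near the 9.19% of all features, and 0 at the later times. The coactivator NCOA2 had the lowest p at 8 hpf (-0.40, SE 0.14, adjusted p = 0.32), on average (-0.18, SE 0.07, adjusted p = 0.21) and at 11 hpf, where the difference was -0.20 (SE 0.13, adjusted p = 1). NR2F1 (ENSDARG00000017168) had it at 14 hpf (-1.12, SE 0.56, adjusted p = 0.88) and NCOA3 at 18 hpf (0.23, SE 0.11, adjusted p = 0.99).

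Of the 30 genes that respond to retinoic acid, 22 lay below 0 and 7 above at 8 hpf, with a median log2 fold change of -0.36 against 0.00 for all features, and 6 had an unadjusted p under 0.05, beside 9.19% of all features. On the first principal component the 8 hpf knockdown libraries (-125.5 and -141) lay to the earlier side of the same-numbered controls (-118.5 and -137.7). From 8 to 11 hpf in controls 19 of the 30 genes were called higher and 3 lower. Those called lower were pdx1, hoxb1b (-0.66) and pbx4 (-0.37). The 8 hpf knockdown values of pbx4 and hoxb1b are given below. Both genes were picked, pbx4 for the lowest p of the list at 8 hpf and hoxb1b after its values were seen. No conclusion about age was drawn from these values. The 8 hpf knockdown value of pdx1, also called lower from 8 to 11 hpf, is not reported here. The part of age in the knockdown differences was not tested. The median at 8 hpf was -0.35 with 3 genes of at most 3 counts left out. At 11 hpf 21 lay below 0 (median -0.09), at 14 hpf 14 (median 0.03) and at 18 hpf 7, with 23 above (median 0.14). At 8 hpf pbx4 had the lowest p, at 464.5 and 496.7 CPM in the knockdown against 643.4 and 659.5 in controls (-0.44, SE 0.09, adjusted p = 0.056). The knockdown libraries of pbx4 lay below both controls there, and its means at 18 hpf were 513.7 CPM in the knockdown and 465.6 in controls.

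At 8 hpf hoxb1b, named after its values were seen because it is an early retinoic acid target, stood at 143 and 122.3 CPM against 202.7 and 174.8 (-0.51, SE 0.15, adjusted p = 0.23). The lowest p of the list was that of meis3 at 11 hpf (-0.31, SE 0.15, adjusted p = 1) and on average (-0.17, SE 0.07, adjusted p = 0.28). At 14 and 18 hpf it was that of the HOXB5 genes, ENSDARG00000013057 at -0.74 (SE 0.31, adjusted p = 0.85) and ENSDARG00000054030 at 0.57 (SE 0.28, adjusted p = 0.99). In the test of a changing effect the lowest p of the 3 lists were those of pbx4 (unadjusted p = 0.003), DHRS9 (0.046) and NCOA2 (0.056), each with an adjusted p of 1.

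**Figure D4:**
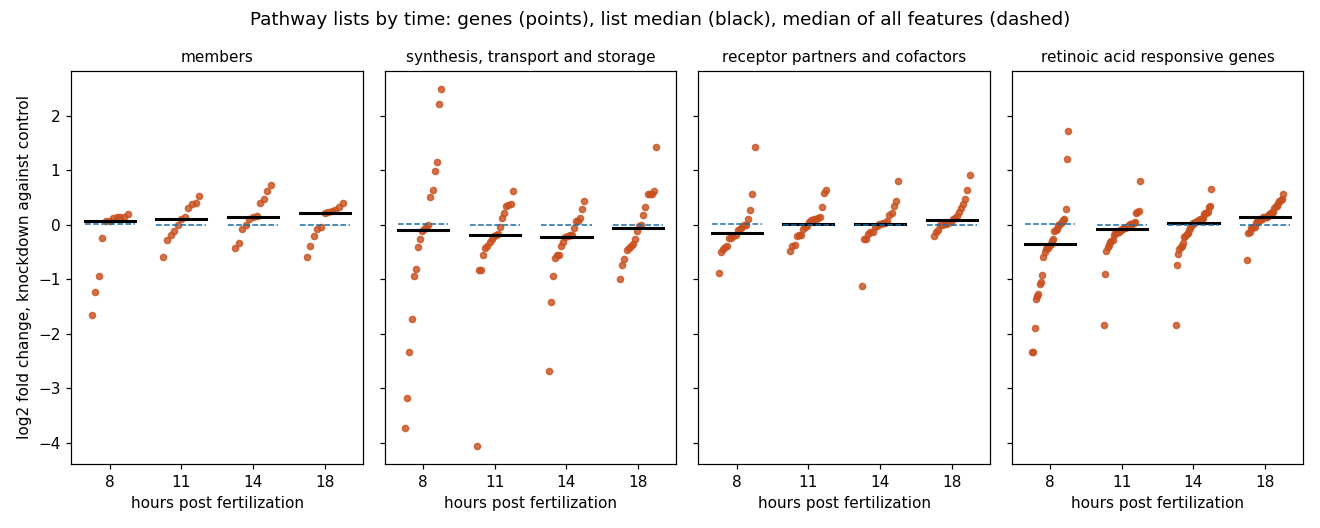
Log2 fold change of knockdown against control (vertical axis) at each time for the 11 tested genes of the pathway core and for the 3 lists of other pathway genes, with black bars for the median of a list and dashed bars for that of all features. The median of the genes that respond to retinoic acid goes from -0.36 at 8 hpf to 0.14 at 18 hpf.

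Genes of the most similar course over the 8 group means of log2 CPM, out of 9996 genes compared, were found for 2 enzymes as a description. For CYP26A1 these were ZBTB3 (Pearson's r = 0.999), MARCKS (ENSDARG00000004049; 0.998), ARID1A (ENSDARG00000101710; 0.997), tiparp (0.996) and cbx2 (0.996). For ALDH1A2 they were nfil3-5 (0.993), MID1IP1 (0.99), pitpnc1b (0.986), RSRC2 (0.986) and slc6a7 (0.985). The group means share libraries, depth and the common change with age.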

How the data were processed

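The authors deposited raw read counts, whole numbers per Ensembl gene and per repeat family, for 16 libraries of 4399855 to 7694887 counts. STAR and the genome build GRCz11 are named in the submitters' processing notes. The counting program, its strand setting and its handling of reads shared by paralogs were not given in the sources used here, which leaves counts of the paralog pairs uncertain. The single-library files held the same values as the combined table, which was used. Gene symbols were read from a list that pairs them with Ensembl gene numbers. A RefSeq table on another assembly did not separate the paralogs. No coordinates or sequences are printed.

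Genes and families were fitted together with edgeR 4.0.16 (R 4.3.3), with TMM scaling, filterByExpr on the 8 groups (17756 features kept, at least 99.76% of a library's counts) and 1 mean per group with 8 residual degrees of freedom. The quasi-likelihood F-test was used with Benjamini-Hochberg adjustment over all features, and calls were made at an adjusted p under 0.05. SE is the log2 fold change divided by the square root of F. Where a group had 0 counts, 3 counts over the group gave a lower bound, which covers counting error only. DESeq2 1.42.0, other scaling, no filter, genes only, replicate blocks, fits of 2 groups and leaving out each library were the alternatives. Where that left 1 library in a group, it was assumed to vary like the other groups. Of 78 listed names of other pathway genes 74 matched. List genes were named by a rule: those called, or else the lowest p of a list, in the knockdown comparisons, and at most 3 rises and 3 falls per list in a control step. Results for some genes that the rule gave are not reported here. For CYP26A1 and ALDH1A2 the 5 genes of highest correlation were named. Members and lists were chosen with earlier results of these data known. Replicates differed by more than sampling noise (chi-square per degree of freedom 4.17 to 35.3), and each library was kept as its own sample.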

Additional observations from a re-analysis of the deposited data

How the results depend on the processing

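No member changed direction with a call under any alternative run. The count of 10 members called from 8 to 11 hpf ran from 8 to 11 when single libraries were left out, and all other settings gave 10 or 11. From 11 to 14 hpf the count was 1, with a range of 0 to 3 over single libraries left out, 3 by DESeq2, 3 with a replicate block, 5 with no filter beyond 1 count, and 4 without both 8 hpf replicate 1 libraries, a setting chosen after seeing the data. From 14 to 18 hpf it was 2, with a range of 0 to 3, 1 by DESeq2, 4 with no filter beyond 1 count, 7 with the 2 groups fitted alone, and 4 without both 11 hpf replicate 2 libraries, also chosen after seeing the data.

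In the knockdown comparisons the count of 0 became 1 at 14 hpf (CYP26C1) with no filter or with the 2 groups alone, 1 on average (CYP26A1) and 1 for the change over time (CYP26C1) with no filter. Over single libraries left out the count ran from 0 to 1 at 11 hpf, 0 to 2 on average and 0 at 8, 14 and 18 hpf and for the change over time. With a replicate block within each time it was 2 at 14 hpf (CYP26B1, CYP26C1) and 3 on average (CYP26A1, rarab and the second DHRS3). Same-numbered libraries deviated together with correlations of 0.321, 0.495, 0.163 and 0.075 at 8, 11, 14 and 18 hpf, and the labels do not say what a number marks. The numbers were not taken to pair the libraries because 1 of the 4 correlations was under 0.1, although 3 were above it, and the calls made with the block stand beside those without it. The cause of these changes was not tested.

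Over all features, the counts of 61, 1, 1 and 2 at the 4 times and 289 on average became 622, 120, 314, 117 and 2097 with the block within each time, 326, 95, 156, 130 and 1074 with no filter, and 114, 10, 11, 6 and 433 by DESeq2. With the 2 groups alone they were 5, 0, 60 and 117 at the 4 times, with genes only 56, 0, 0, 1 and 283, and over 11, 14 and 18 hpf alone the average gave 56. A block over all times gave 497 on average, and single libraries left out gave 17 to 124, 1 to 77, 1 to 15, 1 to 6 and 149 to 994. The count of 0 for a changing effect became 83 with no filter, 3 by DESeq2 and 95 with the block within each time. From 11 to 14 hpf 468 features became 1236 with no filter and 294 without both 11 hpf replicate 2 libraries, and from 14 to 18 hpf 2060 became 4193 with the 2 groups alone. Single libraries left out gave 2760 to 5824 (5392 with all libraries), 99 to 782 and 651 to 2521 in the 3 control steps. DESeq2 gave no adjusted p to some low genes at 8 and 11 hpf, and at 11 hpf it covered 6, 13 and 22 of the 18, 18 and 30 genes of the lists of synthesis, receptor partners and responsive genes. Counts of 4 to 20 at 8 hpf limit CYP26B1 and the second DHRS3.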
